A study of Mus musculus with 13 samples.

Results

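The genes described here are the 4 precursors of opioid peptides (Penk, Pdyn, Pomc and Pnoc) and the 4 opioid receptors (Oprm1, Oprd1, Oprk1 and Oprl1) of the mouse, 8 of 41388 genes counted. They were selected on measured values: all 13 libraries were read, and the level of each gene was compared over the groups, library by library for Penk and Pdyn. The values of these 8 genes are therefore given as a description and carry no test. All 8 passed the filter on low counts, which left 15406 genes.

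RNA was sequenced from cells of dorsal root ganglia, the ganglia that hold the cell bodies of sensory neurons, sorted by flow cytometry for enhanced green fluorescent protein (EGFP). The genotype label of every group is Tg(Ret-EGFP)SJ on strain C57BL/6, and the design text describes heterozygotes with EGFP placed in the Ret locus, which labels cells with an active Ret gene. Ret is a receptor for neurotrophic factors. No group was without the reporter allele. No treatment was given, and all mice were adults of 3 months. The groups were 3 libraries of female L6S1 ganglia (the sixth lumbar and the first sacral level), 3 of female L345 ganglia (the lumbar levels just above), 4 of male L6S1 and 3 of male L345, named by the replicate letters A to F. Each library was a pool of 2 to 9 mice and 12 to 42 ganglia, and whether 1 mouse gave ganglia to both levels is not stated in the labels. The spread between libraries is therefore a spread between pools.

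Opioid peptides are cut from longer precursor proteins. Prohormone convertases cut at pairs of basic residues, carboxypeptidase E trims the ends, and the released peptides bind receptors that couple to inhibitory G proteins. In sensory neurons these receptors are known to lower calcium entry and the release of transmitter at the central ending. Enkephalins, from Penk, favour the delta and mu receptors, encoded by Oprd1 and Oprm1. Dynorphins, from Pdyn, favour the kappa receptor of Oprk1, beta-endorphin from Pomc acts at the mu receptor, and nociceptin from Pnoc has its own receptor, encoded by Oprl1.

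The number of peptide copies per precursor is shown first, because the precursor that differed most between the spinal levels is also the one with the most copies. The coding sequences were read from GENCODE M21 transcripts on GRCm38. Each line gives, 5′ to 3′ on the coding strand, the core of an opioid peptide with 2 codons on either side. Capitals mark the codons of the peptide core, which is Met-enkephalin or Leu-enkephalin in Penk, Pdyn and Pomc and the related first residues of nociceptin in Pnoc.
Penk copy 1: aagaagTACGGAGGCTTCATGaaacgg
Penk copy 2: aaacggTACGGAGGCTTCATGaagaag
Penk copy 3: aagaggTATGGCGGCTTCATGaagaag
Penk copy 4: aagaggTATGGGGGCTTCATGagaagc
Penk copy 5: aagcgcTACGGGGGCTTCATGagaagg
Penk copy 6: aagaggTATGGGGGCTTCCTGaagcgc
Penk copy 7: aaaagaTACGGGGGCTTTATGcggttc
Pdyn copy 1: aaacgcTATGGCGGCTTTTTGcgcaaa
Pdyn copy 2: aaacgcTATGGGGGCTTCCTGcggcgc
Pdyn copy 3: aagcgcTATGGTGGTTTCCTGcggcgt
Pomc copy 1: aagcgtTACGGTGGCTTCATGacctcc
Pnoc copy 1: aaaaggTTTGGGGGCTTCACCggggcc
The Penk precursor of 268 residues held 7 copies, 6 of Met-enkephalin and 1 (copy 6) of Leu-enkephalin. All 7 lay in exon 2 of 2, between 4133842 and 4134354 on the minus strand of chromosome 4. The Pdyn precursor of 248 residues held 3 copies of Leu-enkephalin, all in exon 4 of 4, and the Pomc precursor of 235 residues held 1 copy of Met-enkephalin, the start of beta-endorphin, in exon 4 of 4. The Pnoc precursor of 187 residues held 1 nociceptin core, in exon 3 of 4. A pair of codons for basic residues, lysine or arginine, stood before every one of the 12 cores. Such a pair also followed 5 of the 7 Penk cores and 3 of the 3 Pdyn cores, and it did not follow the core of Pomc or of Pnoc directly. RNA counts do not show which of these peptides were made.

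Total counts ran from 13030096 to 27011995 per library. Levels are given in CPM (counts scaled to a common library total), with the library total multiplied by its TMM factor, a scaling factor of edgeR. Ret lay at 181 to 182 CPM in female L6S1, 199.9 to 207 CPM in female L345, 87.2 to 221 CPM in male L6S1 and 195 to 207 CPM in male L345. Male L6S1 E, at 87.2 CPM, and D, at 154 CPM, had the lowest Ret of all libraries. Summed markers of neurons (7 genes) lay at 11144 to 14184 CPM in female L6S1 and 12651 to 13682 CPM in female L345. They lay at 14318 to 20440 CPM in male L6S1 and 11857 to 13168 CPM in male L345, without overlap. Male L6S1 D and E, at 20440 and 18945 CPM, were the highest, against 11144 to 17171 CPM in the other 11 libraries. Summed markers of autonomic neurons (6 genes) did not exceed 0.796 CPM in any library. Male L6S1 D and E stood apart from the other 11 libraries. Their 14 ribosomal protein genes summed to 4245 and 4324 CPM, against 1527 to 2159 CPM in the other 11, and 12 of the 14 were higher in both than in every other library. Their 5 markers of peptidergic nociceptors summed to 24624 and 31917 CPM, against 7969 to 14042 CPM. Their 6 markers of nonpeptidergic nociceptors summed to 872 and 372 CPM, against 1021 to 2156 CPM, and 10 markers of satellite glia and Schwann cells to 1867 and 5857 CPM, against 831 to 1841 CPM. Markers of fibroblasts (6 genes) summed to 273 and 587 CPM in D and E, against 79.4 to 440.1 CPM, and markers of immune cells (10 genes) to 7.21 and 11.2 CPM, against 2.25 to 7.22 CPM. For those of the 8 genes that have a fold change below, the male value is also given without them. In bulk RNA, fewer cells of a type and less RNA per cell cannot be told apart.

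Penk (ENSMUSG00000045573, chromosome 4, 4133531 to 4138819, minus strand), the precursor of the enkephalins, was higher in every L6S1 library than in every L345 library. In females it lay at 29.9, 40.4 and 68.3 CPM in L6S1 A, B and C, against 17.0, 12.2 and 16.2 CPM in L345 A, B and C. In males it lay at 86.7, 322, 551 and 126 CPM in L6S1 A, D, E and F, against 27.5, 10.8 and 28.1 CPM in L345 A, B and C. The lowest L6S1 library, female A at 29.9 CPM, was close to the highest L345 library, male C at 28.1 CPM, while the libraries of each sex were well apart. Penk averaged 46.2 ± 19.9 CPM in female L6S1 and 15.1 ± 2.56 CPM in female L345 (SD, n = 3 each), a log2 fold change of 1.61 (SE 0.57). It averaged 271 ± 213 CPM in male L6S1 (SD, n = 4) and 22.1 ± 9.85 CPM in male L345 (SD, n = 3), a log2 fold change of 3.62 (SE 0.60).

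The size of the male value moved with D and E. Without these libraries the male log2 fold change of Penk was 2.26 (SE 0.41), and A and F alone, at 86.7 and 126 CPM, were still above every female and every L345 library. D and E were also the libraries with the highest neuronal, ribosomal and peptidergic marker sums given above. The part of these in the Penk values of D and E was not tested. In females, where Penk was also higher in L6S1, the peptidergic markers summed to 9165 to 11322 CPM in L6S1, against 9183 to 14042 CPM in L345, and the ribosomal genes to 1527 to 1768 CPM, against 1536 to 2159 CPM. In males the peptidergic markers summed to 11163 to 31917 CPM in L6S1, against 7969 to 9333 CPM in L345, without overlap. The neuronal markers of males summed to 14318 to 20440 CPM in L6S1, against 11857 to 13168 CPM in L345, without overlap. Those of females summed to 11144 to 14184 CPM in L6S1, against 12651 to 13682 CPM in L345. The ribosomal genes of males summed to 1674 to 4324 CPM in L6S1, against 1634 to 1640 CPM in L345, also without overlap. The high values were those of D and E, at 4245 and 4324 CPM. The lowest, 1674 CPM, was close to male L345, and male L6S1 A and F both lay within the female L345 range of 1536 to 2159 CPM. Markers of cold-sensing neurons (3 genes) lay at 19.8 to 32.3 CPM in female L6S1, against 10.6 to 12.3 CPM in female L345, without overlap. In males they lay at 13.4 to 23.2 CPM in L6S1, against 11.1 to 16.7 CPM in L345, and these ranges overlapped. Markers of pruriceptors (6 genes) lay at 457 to 593 CPM in female L6S1, against 328 to 408 CPM in female L345, and at 342 to 444 CPM in male L6S1, against 344.95 to 421 CPM in male L345. Markers of fibroblasts lay at 195 to 440.1 CPM in female L6S1, against 109.8 to 229.6 CPM in female L345, and at 142 to 587 CPM in male L6S1, against 79.4 to 153 CPM in male L345. The part of these markers in the Penk difference was not tested. Averaged over the sexes, the log2 fold change of Penk was 2.61 (SE 0.41), and 1.93 (SE 0.28) without D and E. With the replicate letter as a block it was 1.80 (SE 0.23) averaged over the sexes and 2.03 (SE 0.38) in males, but D, E and F have letters that no other library carries and take no part in that fit. Penk shares 233 exon bases with A830012C17Rik on the opposite strand, which held 14 counts over all libraries beside 26563 of Penk.

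Pdyn (ENSMUSG00000027400, chromosome 2, 129686565 to 129699844, minus strand), the precursor of the dynorphins, went the other way at a low level. In females it lay at 1.98, 1.5 and 0.863 CPM in L6S1 A, B and C, against 5.83, 2.13 and 2.55 CPM in L345 A, B and C, so that no L6S1 library reached the lowest L345 library. In males it lay at 0.267, 0.848, 0.234 and 0.401 CPM in L6S1 A, D, E and F, against 0.744, 0.745 and 1.46 CPM in L345 A, B and C. There D lay above 2 of the 3 L345 libraries and the others lay below all 3. The log2 fold change was -1.26 (SE 0.52) in females, -1.16 (SE 0.54) in males and -1.21 (SE 0.37) averaged over the sexes. These values rest on 4 to 45 counts per L6S1 library and 10 to 110 per L345 library. Without male L6S1 D and E the male value was -1.55 (SE 0.62). In the fit with the letters as a block, where male L6S1 rests on A alone, it was -2.38 (SE 0.86).

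**Figure D1:**
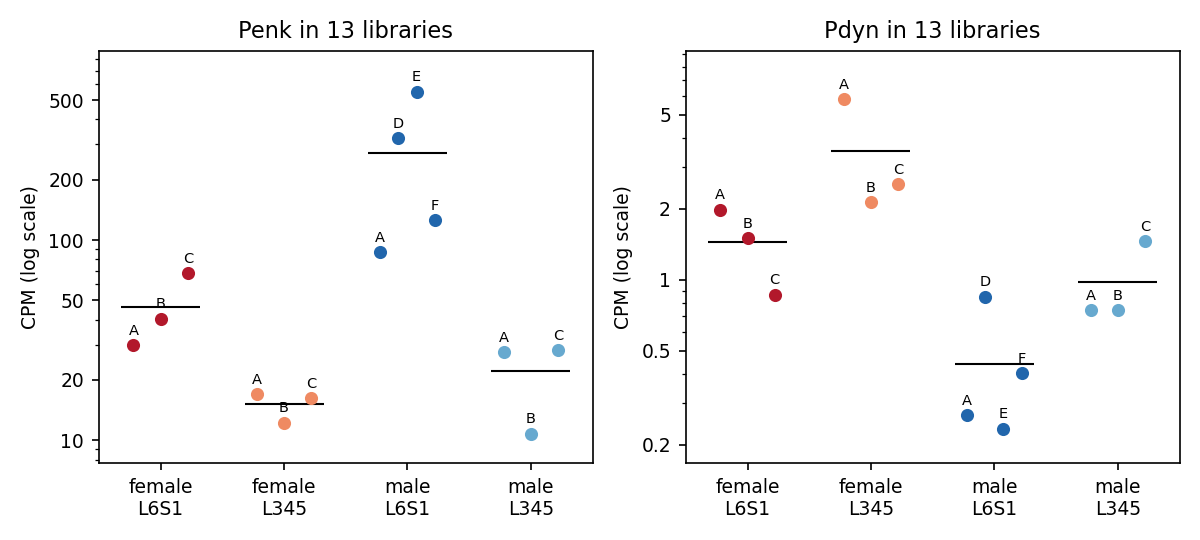
Penk (left) and Pdyn (right) in CPM on a log axis, 1 point per library with its replicate letter, and the group mean as a line. All 7 L6S1 points of Penk, from 29.9 to 551 CPM, lie above all 6 L345 points, from 10.8 to 28.1 CPM, while Pdyn lies lower in L6S1 in females and overlaps in males through D.

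Pomc (ENSMUSG00000020660, chromosome 12, 3954951 to 3960618, plus strand), the precursor of beta-endorphin and of the melanocortins, was low in every library. It lay at 1.5, 1.92 and 2.01 CPM in female L6S1 A, B and C, against 1.43, 1.87 and 1.85 CPM in female L345 A, B and C, and these ranges overlapped. In male L6S1 A, D, E and F it lay at 2.05, 5.09, 6.26 and 1.75 CPM, against 1.56, 1.16 and 1.36 CPM in male L345 A, B and C. All 4 male L6S1 libraries were above the male L345 libraries, with D and E far above the others and A and F close to the female values. The log2 fold change was 0.07 (SE 0.45) in females and 1.47 (SE 0.44) in males. Without D and E the male value was 0.48 (SE 0.32), and the 11 remaining libraries all lay between 1.16 and 2.05 CPM.

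Pnoc (ENSMUSG00000045731, chromosome 14, 65400673 to 65425472, minus strand), the nociceptin precursor, was near the limit of detection. It held 3, 2 and 3 counts in female L6S1 A, B and C, against 0, 5 and 0 in female L345 A, B and C. Male L6S1 A, D, E and F held 10, 15, 11 and 5 counts, against 0, 1 and 13 in male L345 A, B and C. In CPM the male L6S1 libraries lay at 0.182 to 0.707, against 0 to 0.633 in male L345, where replicate C alone held 13 of the 14 counts. A floor of 3 counts is 0.109 to 0.223 CPM in these libraries, and a difference between the levels was not detectable at this depth, so no fold change is given.

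Oprm1 (ENSMUSG00000000766, chromosome 10, 6758506 to 7038198, plus strand), the mu receptor, overlapped between the levels in both sexes. It lay at 29.4, 22.1 and 18.3 CPM in female L6S1 A, B and C, against 13.5, 24.4 and 17.7 CPM in female L345 A, B and C. It lay at 17.3, 10.8, 10.4 and 13 CPM in male L6S1 A, D, E and F, against 15.7, 17.8 and 16.0 CPM in male L345 A, B and C. Male L6S1 D, E and F were the 3 lowest of all 13 libraries. The log2 fold change was 0.33 (SE 0.29) in females and -0.36 (SE 0.28) in males, and averaged over the sexes it was -0.01 (SE 0.20), with a sign that changed in 10 of 20 alternative settings. Without D and E the male value was -0.13 (SE 0.28) and the averaged value 0.10 (SE 0.19). Oprm1 shares 96 exon bases with Ipcef1 on the opposite strand, which held 332 counts beside 4657 of Oprm1.

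Oprd1 (ENSMUSG00000050511, chromosome 4, 132110726 to 132144486, minus strand), the delta receptor, was the receptor whose group means differed most between the levels, at a low count. It lay at 0.661, 0.602 and 0.863 CPM in female L6S1 A, B and C, against 0.743, 1.52 and 2.14 CPM in female L345 A, B and C. It lay at 1.51, 0.330, 0.526 and 0.874 CPM in male L6S1 A, D, E and F, against 1.41, 2.09 and 1.61 CPM in male L345 A, B and C. Within each sex 1 L6S1 library reached into the L345 range, female C and male A, and the rest lay below it. Oprd1 averaged 0.709 ± 0.137 CPM in female L6S1 and 1.47 ± 0.70 CPM in female L345 (SD, n = 3 each), a log2 fold change of -1.05 (SE 0.53). It averaged 0.811 ± 0.520 CPM in male L6S1 (SD, n = 4) and 1.70 ± 0.35 CPM in male L345 (SD, n = 3), a log2 fold change of -1.06 (SE 0.48). Without D and E the male value was -0.53 (SE 0.46). These values rest on 7 to 52 counts per library. The male value turned to 0.25 when the letters were used as a block, a fit in which male L6S1 rests on A alone.

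Oprk1 (ENSMUSG00000025905, chromosome 1, 5588493 to 5606131, plus strand), the kappa receptor, overlapped between the levels in both sexes. It lay at 26.1, 12.9 and 8.15 CPM in female L6S1 A, B and C, against 16.9, 8.0 and 7.88 CPM in female L345 A, B and C. It lay at 6.19, 7.26, 10.6 and 3.24 CPM in male L6S1 A, D, E and F, against 10.9, 6.47 and 5.69 CPM in male L345 A, B and C. Replicate A was the highest library of each group other than male L6S1, where E was. The log2 fold change was 0.52 (SE 0.47) in females and -0.17 (SE 0.45) in males, with a sign that changed in 1 and 2 of 19 alternative settings. Without D and E the male value was -0.70 (SE 0.53).

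Oprl1 (ENSMUSG00000027584, chromosome 2, 181715016 to 181720985, plus strand), the nociceptin receptor, had the narrowest relative range of the 8 genes, from 13.3 to 26.0 CPM. It lay at 24.5, 15.3 and 16.8 CPM in female L6S1 A, B and C, against 21.0, 19.2 and 16.5 CPM in female L345 A, B and C. It lay at 18.5, 13.7, 13.3 and 20.6 CPM in male L6S1 A, D, E and F, against 26.0, 22.6 and 17.4 CPM in male L345 A, B and C. The ranges overlapped in both sexes, with D and E the lowest libraries of all 13. The log2 fold change was 0.00 (SE 0.28) in females and -0.41 (SE 0.26) in males, where it was -0.18 (SE 0.25) without D and E.

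**Figure D2:**
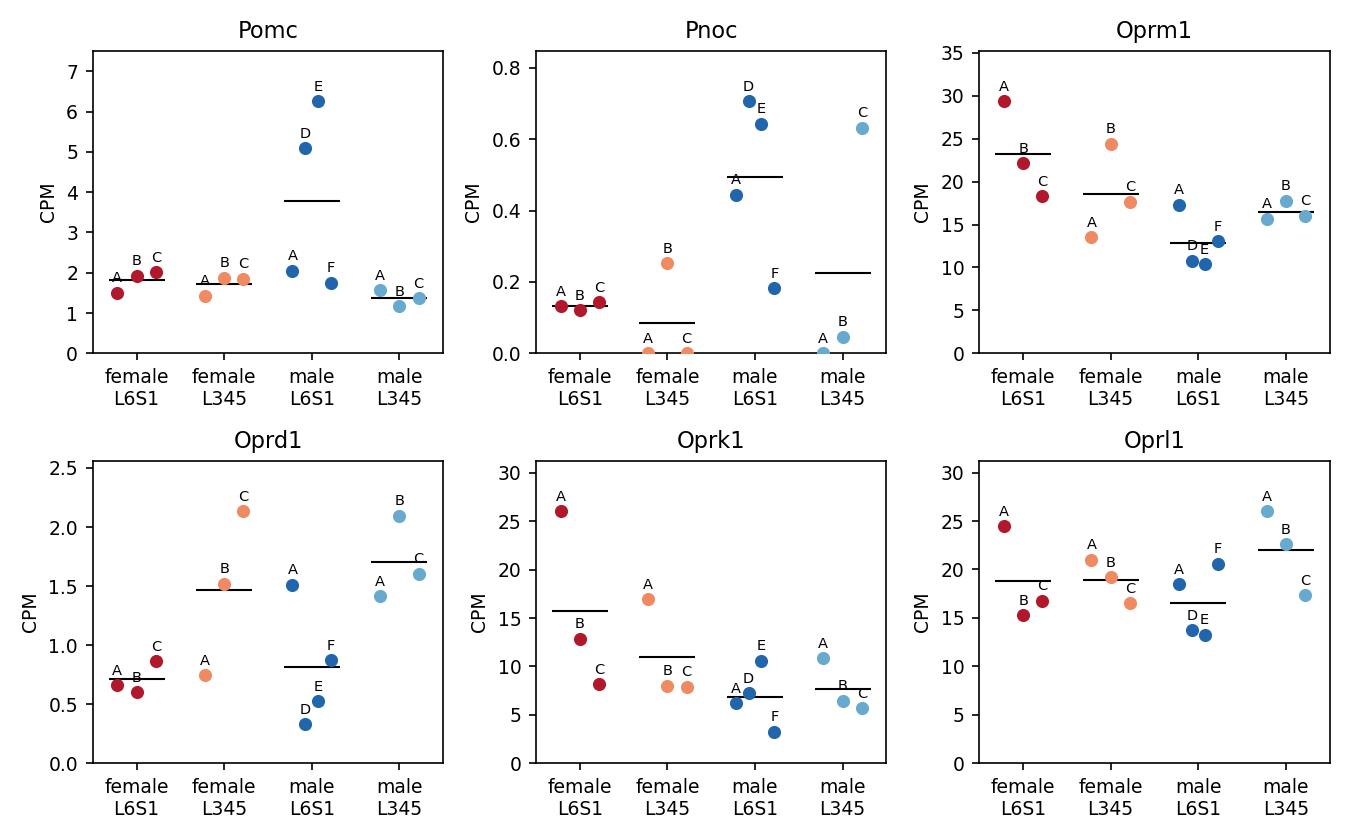
The other 6 genes in CPM on linear axes from 0, 1 point per library with its replicate letter, and the group mean as a line. Pomc stands out through D and E of male L6S1 at 5.09 and 6.26 CPM, and the L6S1 and L345 points of each receptor overlap in both sexes.

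**Figure D3:**
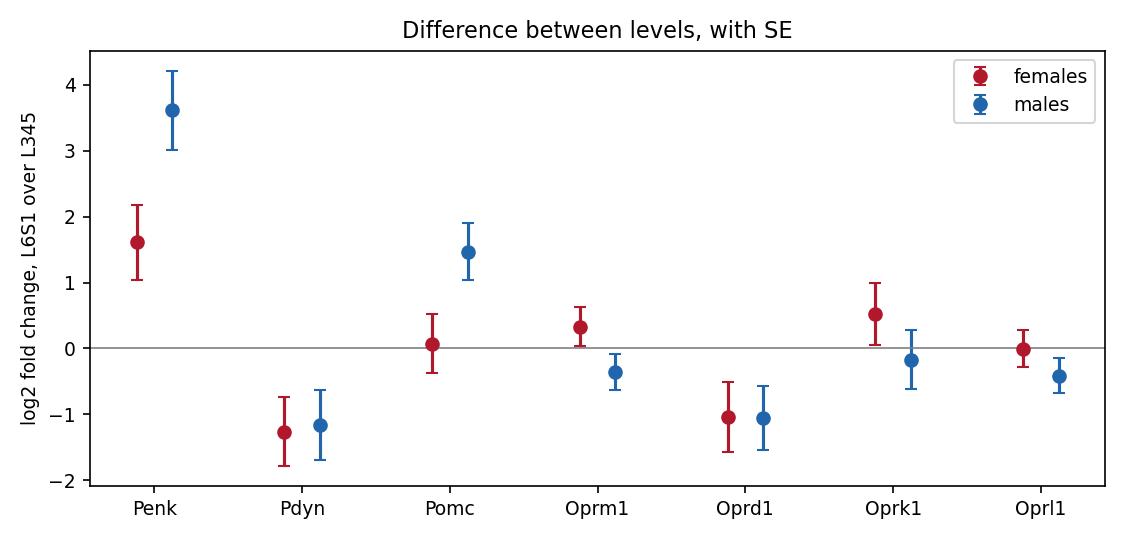
Log2 fold change of L6S1 over L345 with its SE (bars) in females and in males for 7 of the 8 genes, Pnoc left out for its low counts. Penk lies at 1.61 in females and 3.62 in males, Pdyn and Oprd1 lie near -1 in both sexes, and Pomc is at 0.07 in females and 1.47 in males.

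Counted over the 8 genes, Penk alone did not overlap between all L6S1 and all L345 libraries, beside 0.766% of the 15406 tested genes that did not overlap in either direction. In females Penk (higher) and Pdyn (lower) did not overlap, beside 8.75% of all tested genes. In males Penk and Pomc (both higher) did not overlap, beside 18.7% of all tested genes. As the genes were selected on these comparisons, nothing is read from these counts.

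Between the sexes the picture differed from gene to gene. No sequencing date is labelled, but the submitters' processing notes differ between the female and the male libraries, so that sex and processing cannot be told apart. At L6S1, males were above females without overlap for Penk (86.7 to 551 CPM, against 29.9 to 68.3 CPM) and Pnoc (0.182 to 0.707 CPM, against 0.120 to 0.144 CPM), and below them for Pdyn (0.234 to 0.848 CPM, against 0.863 to 1.98 CPM) and Oprm1 (10.4 to 17.3 CPM, against 18.3 to 29.4 CPM). The Pnoc values rest on 5 to 15 counts in males and 2 to 3 in females, and the female counts are at or below the floor of 3. These 4 of 8 stand beside 11.9% of all tested genes that did not overlap at L6S1. At L345 only Pdyn did not overlap, at 0.744 to 1.46 CPM in males, against 2.13 to 5.83 CPM in females, beside 6.6% of all tested genes. Pooled over the levels, none of the 8 was free of overlap, beside 0.169% of all tested genes. The 8 genes were selected on comparisons over these same groups, so nothing is read from these counts either. The log2 fold change of males over females, averaged over the levels, was 1.55 (SE 0.39) for Penk (0.86 without male L6S1 D and E), -1.76 (SE 0.37) for Pdyn (-1.96 without them), -0.86 (SE 0.33) for Oprk1 (-1.13 without them) and -0.51 (SE 0.20) for Oprm1 (-0.40 without them). Penk was thus similar between the sexes at L345, at 10.8 to 28.1 CPM in males and 12.2 to 17.0 CPM in females, and apart at L6S1. The difference between the sexes in the effect of the level was 2.01 log2 units (SE 0.78) for Penk, males minus females. It was 0.65 (SE 0.55) without male L6S1 D and E and 0.44 (SE 0.48) with the replicate letter as a block, where male L6S1 rests on A alone.

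Per kilobase of exon, which allows levels to be set against each other, the 8 genes spanned a wide range. The median over 13 libraries was 18.3 CPM per kilobase for Penk, 4.92 for Oprl1, 2.15 for Oprm1, 1.84 for Pomc, 1.17 for Oprk1, 0.299 for Pdyn, 0.217 for Oprd1 and 0.0667 for Pnoc. Penk was above Oprl1 in 13 of 13 libraries, Oprl1 above Oprm1 in 13 and Oprk1 above Pdyn in 13. The order of the other neighbours varied: Oprm1 was above Pomc in 10 libraries, all but male L6S1 D, E and F, and Pomc above Oprk1 in 10. Pdyn was above Oprd1 in 8 of 13 libraries, and Oprd1 was above Pnoc in 11. Penk was therefore the highest opioid precursor per exon length at both levels, and Oprl1 the highest receptor. The order of Oprl1 and Oprm1 depends on the exon lengths used, 3753 and 8037 bases. In CPM their medians were close, at 18.5 and 17.3.

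**Figure D4:**
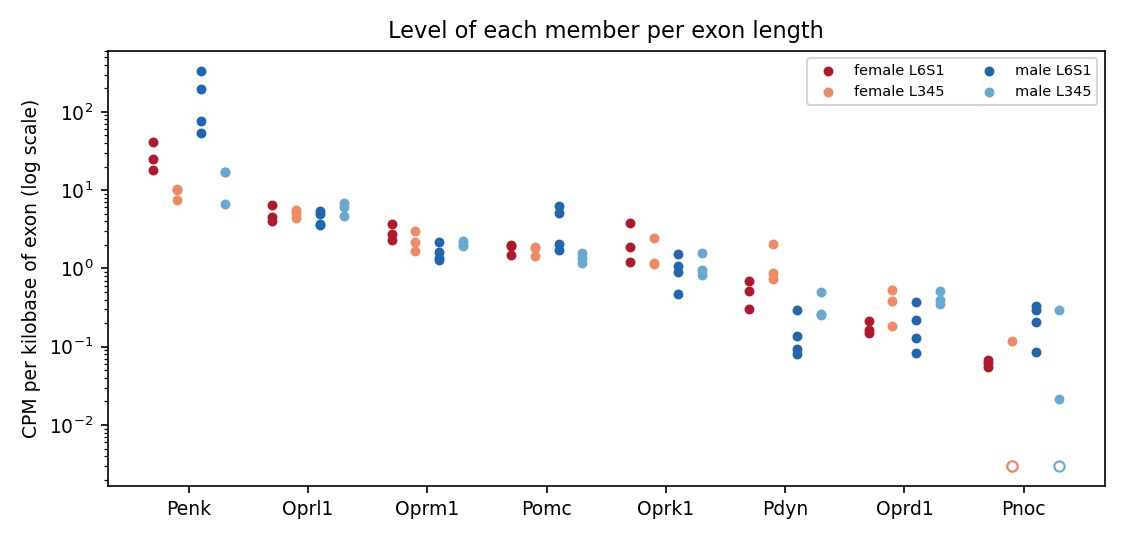
CPM per kilobase of exon on a log axis for each gene, ordered by its median over 13 libraries, with 1 point per library coloured by group. Open circles at the lower edge mark libraries in which Pnoc had no count. Penk lies highest in every library, Oprl1 is the highest receptor, and Pdyn, Oprd1 and Pnoc lie lowest.

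Genes with a pattern most like Penk were found by Pearson's r of log2 CPM over 13 libraries among 11228 tested genes whose log2 CPM averaged 1 or more. The first 5 were Tnfrsf12a, a receptor for a cytokine of the tumour necrosis factor family (r = 0.95), Fxyd7, a regulator of the sodium pump (0.95), Blvrb, a biliverdin reductase (0.95), Cidea, a protein of lipid droplets (0.95), and Thnsl2, a relative of threonine synthases (0.94). Without male L6S1 D and E, over 11 libraries, these 5 had r of 0.85 to 0.89 and ranked 8 to 24 among all genes compared, so that none of them was among the first 5 of that order. After subtraction of the group means they had r of 0.76 to 0.90. For Pdyn the first 5 were Slc7a3, a transporter of cationic amino acids (r = 0.93), Plce1, a phospholipase (0.86), Herpud2, a protein of the endoplasmic reticulum (0.84), Hist1h2be, a histone gene with near-identical copies whose counts are uncertain (0.83), and Tenm2, a teneurin (0.83). Their r was 0.81 to 0.94 without D and E, where Slc7a3 ranked 1, Hist1h2be 4, Tenm2 6, Plce1 11 and Herpud2 17, and 0.48 to 0.93 after subtraction of the group means. Among the 8 genes, Penk followed Pomc most closely (r = 0.86), and this r was 0.54 without D and E. Penk and Pdyn had r of -0.68 over 13 libraries and 0.07 after subtraction of the group means. These values describe libraries that share groups, depth and scaling, and were not tested.

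The other genes of the pathway were taken from a list of 64 in 9 groups, of which 63 were tested. In edgeR's quasi-likelihood test with Benjamini-Hochberg adjustment, 1 of the 63 rose in L6S1 averaged over the sexes and 0 fell, beside 0.448% of all tested genes called. This gene was Pcsk1, prohormone convertase 1, of the class of enzymes that cut precursors at pairs of basic residues. It lay at 84.1, 50.2 and 52.0 CPM in female L6S1 A, B and C, against 28.0, 22.8 and 24.7 CPM in female L345 A, B and C. It lay at 43.8, 26.3, 42.8 and 50.0 CPM in male L6S1 A, D, E and F, against 29.2, 25.9 and 21.8 CPM in male L345 A, B and C. Thus 6 of 7 L6S1 libraries were above every L345 library, all but male D. The edgeR log2 fold change of Pcsk1 was 0.99 (SE 0.20, adjusted p = 0.0408). With the replicate letter as a block, where male L6S1 rests on A alone, it was 0.88. Pcsk1 lost the call in limma voom (adjusted p = 0.0533) and when 1 library was left out in 10 of 13 cases (any female library, any male L345 library or male L6S1 F), with edgeR adjusted p from 0.0221 to 0.178 over the 13 fits that leave out 1 library.

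The other genes of peptide processing did not pass in the edgeR fit without a block. Pcsk2, the second convertase, lay at 107 to 287 CPM in L6S1, against 134 to 251 CPM in L345, a log2 fold change of 0.08 (SE 0.23). Cpe, carboxypeptidase E, lay at 576 to 919.6 CPM in L6S1, against 599 to 806 CPM in L345, a log2 fold change of -0.04 (SE 0.17). Genes of highest mean log2 CPM in each of the other groups, up to 2 per group, had log2 fold changes averaged over the sexes as follows. Among enzymes that break peptides down, Npepps was at -0.29 and Dpp3 at 0.16. Ogfr, the opioid growth factor receptor, was at 0.43. Gnb1 and Gng3, subunits of G proteins, were at -0.30 and 0.21, and Arrb1 and Grk2, an arrestin and a receptor kinase, at -0.16 and -0.02. Rgs4 and Rgs17, which shorten G protein signals, were at -0.45 and -0.18. Cacna1b, the N-type calcium channel that opioid receptors inhibit, was at -0.38, and the cyclase Adcy5 at -0.25. Gprasp1 and Gprasp2, which sort receptors, were at -0.08 and 0.18, and the transcription factors Fos and Jun at 0.32 and 0.37. None of these genes passed in the edgeR fit without a block.

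The median log2 fold change of the 63 genes averaged over the sexes was -0.02, and over all tested genes it was 0.02. By edgeR 0 of the 63 were called in females (beside 0.0195% of all tested genes), 0 in males (beside 0.221%), 0 for the difference between the sexes in the level effect (beside 0.0%) and 0 for males against females (beside 0.0779%). At an unadjusted p under 0.05 these numbers were 2, 15, 7 and 2 of the 63, beside 2.25%, 25.3%, 11.7% and 6.1% of all tested genes. Of the 63, DESeq2 called 1, 2, 0 and 0, beside 0.175%, 3.59%, 0.0% and 0.0892% of 26901 genes. Limma voom called 0 in each, beside 0.0714%, 0.104%, 0.0% and 0.0779% of all tested genes. The gene called by DESeq2 in females was Pcsk1. The genes called by DESeq2 in males, a share near that of all genes, were Kcnj3, a subunit of the potassium channel that opioid receptors open, and Mme, the enkephalin-degrading enzyme neprilysin, both named after their values were seen. In males DESeq2 gave some genes no adjusted p, Kcnj9 of the 63 among them. Such genes count in the shares but could not be called. By edgeR the male log2 fold change of Kcnj3 was -1.20 (adjusted p = 0.137), and without male L6S1 D and E it was -0.74 (edgeR adjusted p = 0.623). Mme lay at 0.364 to 0.623 CPM in male L6S1, against 0.876 to 4.24 CPM in male L345, a log2 fold change of -2.14 (edgeR adjusted p = 0.137), and -2.07 without D and E (edgeR adjusted p = 0.623). Its highest value, 4.24 CPM, came from male L345 A. Without that library the male log2 fold change of Mme was -1.18 (edgeR adjusted p = 0.365). With the replicate letter as a block, edgeR called 10 of the 63 averaged over the sexes (beside 5.43% of all tested genes), 1 in females (beside 0.623%), 8 in males (beside 4.67%), 1 for the difference between the sexes (beside 0.201%) and 3 for males against females (beside 2.4%).

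**Figure D5:**
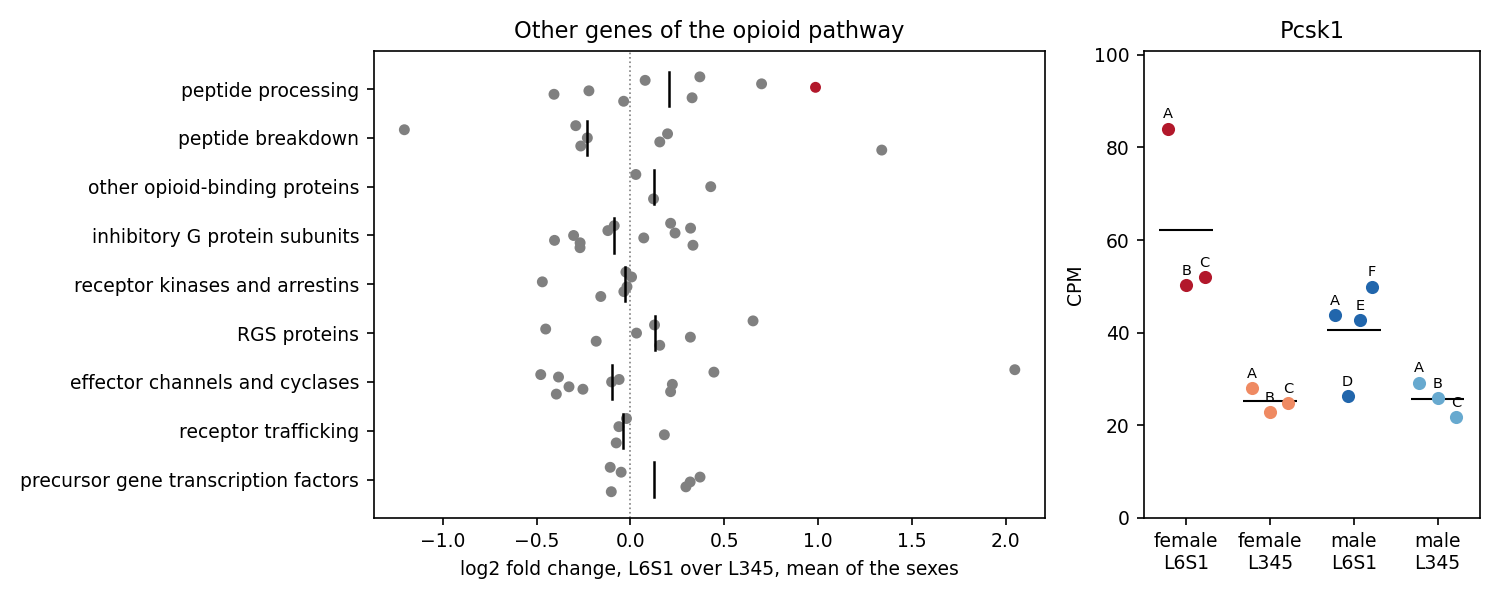
Left, log2 fold change of L6S1 over L345 averaged over the sexes for the 63 tested genes of the pathway, 1 point each, with the median of each group as a line and the called gene in red. Right, Pcsk1, the called gene, in CPM per library with the group mean as a line, at 26.3 to 84.1 CPM in L6S1 and 21.8 to 29.2 CPM in L345.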

How the data were processed

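Per the labels' protocols, 10 ng of RNA from sorted cells was amplified with a SMARTer Ultra Low Input kit. The submitters' processing notes list Subread, featureCounts 1.4.5 and GRCm38.p2 for all libraries, while Salmon, STAR 2.0.4b and mm10 appear for the female libraries only, with no role stated. The handling of strand and of multiply mapped reads is not given in the sources used here. Per gene, the authors deposited whole-number counts of 41388 Ensembl genes, which were the input of every fit. The CPM and RPKM that the authors deposited were recomputed from the counts (largest relative difference 5.10e-15 and 5.22e-14) and used only as a check. The CPM printed here adds the TMM factor, 0.925 and 0.796 for male L6S1 D and E, elsewhere 1.01 to 1.05. Symbols came from GENCODE M21 on GRCm38; 1134 identifiers without one held 0.109% of all counts.

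Fits used R 4.3.3 and edgeR 4.0.16 (filterByExpr, TMM, robust quasi-likelihood F-test, 1 mean per group over 13 libraries, Benjamini-Hochberg adjustment over 15406 genes, calls at adjusted p under 0.05). The script was tested on simulated data. The SE was taken as the size of the log2 fold change divided by the root of its F statistic. Alternatives were median-ratio factors, no filter, DESeq2 1.42.0, limma 3.58.1 voom, the replicate letter as a block, each library left out, male L6S1 D and E left out and, added after seeing the data, the letter within sex as a block. Same-letter libraries of the 2 levels in a sex deviated together (r = 0.52, 0.20 and 0.49 for female A, B and C, 0.10 for male A), while pairs of different letters in a sex ran from -0.56 to 0.25 in females and from -0.27 to 0.21 in males. Every same-letter r within a sex was over 0.1, but some pairs of different letters were as high, and the labels do not state a pairing. Same-letter pairs across the sexes, which cannot be the same mice, ran from -0.11 (female L345 A with male L6S1 A) to 0.52 (female L6S1 A with male L345 A). The letters were used as a block in alternatives only, and the main fit has no block. Floors of 3 counts cover counting error only, since without molecular identifiers amplified reads are not separate molecules. The genes, lists and the naming rule (called genes, up to 4 per list, else the 2 most abundant of a list, and the 5 most like Penk and Pdyn) were chosen with earlier results of these data known. Pcsk2, Cpe, Kcnj3, Kcnj9 and Mme are named beyond the rule. 1 gene that the rule covers is not reported here. Of 163 list genes 162 matched an identifier. The p-values set differences between group means against the spread between these pools, a spread that the fit shares over all groups.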

Additional observations from a re-analysis of the deposited data

How the results depend on the processing

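Averaged over the sexes, the count of called pathway genes was 1; it was 2 without the low-count filter and by DESeq2 (Kcnj9 and Pcsk1; 144 and 187 of 26901 genes in all, against 69 of 15406), 0 by limma voom (56 in all), 10 with the replicate block (837 in all) and 0 to 1 when 1 library was left out. In females it was 0, and 1 by DESeq2, with the replicate block and without male L6S1 D and E (Pcsk1 each time; 47, 96 and 23 of all genes, against 3). In males it was 0; it was 3 without the filter (264 of all genes, against 34), 2 by DESeq2 (965), 8 with the replicate block (719) and 0 to 11 when 1 library was left out, 11 without male L6S1 A (3135). The replicate block gave 1 for the difference between the sexes and 3 for males against females (31 and 369 of all genes), both 0 otherwise. With the replicate block the log2 fold change of Penk was 1.80 averaged over the sexes and 2.03 in males and that of Pdyn in males -2.38; with the letter within sex as a block (chosen after seeing the data) Penk was at 1.57, and without male L6S1 D and E it was at 2.26 in males. The cause of these moves was not tested, beyond that the block leaves 4 residual degrees of freedom and gives no weight to libraries whose letter stands alone. Male L6S1 therefore rests on A alone in every value and count of the replicate block. Over the alternatives Penk kept its sign, at 1.21 to 1.84 in females, 2.03 to 3.91 in males and 1.57 to 2.76 averaged over the sexes, as did Pdyn, at -1.57 to -0.70, -2.38 to -0.75 and -1.80 to -0.94. Of 689 other values under an alternative, 649 stayed on their side of the threshold or within the spread between replicates, 29 moved by more than that spread and 11, all of Pcsk1, lost the call. Low counts limit Pdyn, Pomc, Pnoc and Oprd1.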
